A study of Homo sapiens with 8 samples.

Results

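A set of 34 human genes, the targets of the transcription factor p53 together with kinases and adaptors of the DNA damage response, was followed across KAS-seq peak lists of HEK293T cells with and without vitamin C. The genes were taken by name from a given list and placed by their RefSeq positions on the build GRCh38.p14 (hg38), and each was widened by 1 kb on both sides. All 34 were found among the 19974 protein-coding genes of chromosomes 1 to 22 and X. A gene had a peak in a library where at least 1 bp of a called peak lay in its widened span, and its covered length was the number of bases in that span that lay in peaks.

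KAS-seq marks DNA whose strands have come apart. The probe N3-kethoxal enters living cells and binds guanines that are not base-paired, and sequencing of the pulled-down fragments gives peaks where polymerases or other processes had opened the helix. The series held 8 samples of HEK293T, an established human embryonic kidney line, with 2 labelled and 2 input libraries in each of 2 groups. Control cells were kept in medium without vitamin C, treated cells spent 10 min in 0.5 mM vitamin C, which is ascorbic acid, and both were then exposed to 5 mM N3-kethoxal for 10 min. The comparison asks where DNA was opened before and after this short exposure. Each of the 4 labelled libraries has its own list of peaks; inputs, 4 in number, were not analysed here.

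HEK293T carries the SV40 large T antigen, which binds p53 and blocks its activity as a transcription factor, and all groups share it, so the genes below were observed in a background in which p53 itself is restrained. In cells with active p53, damage to DNA is sensed by the kinases ATM and ATR, which signal through CHEK1 and CHEK2 and stabilise p53. The protein then raises transcription of genes for cell cycle arrest, apoptosis, repair and metabolism, and of its own inhibitors MDM2 and PPM1D. Many of these genes are also transcribed without p53. No library of cells without large T antigen was part of the comparison, so its part in any value below was not tested.

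Promoter sequences show where opened DNA lay at the starts that the results turn on. A RefSeq table for GRCh38.p14 gave windows from 250 bases before to 50 bases after a start for 29 of the 34 genes. GADD45A, PHLDA3, TNFRSF10B, RRM2B and TP53INP1 had no entry. The first 3 windows are shown because each held a peak in all 4 libraries, and capitals mark the bases that lay in a peak of every library. They are GADD45B at chr19:2475877-2476176 on the plus strand, CHEK1 at chr11:125625974-125626273 on the plus strand and CHEK2 at chr22:28741771-28742070 on the minus strand, each written 5′ to 3′.
GADD45B: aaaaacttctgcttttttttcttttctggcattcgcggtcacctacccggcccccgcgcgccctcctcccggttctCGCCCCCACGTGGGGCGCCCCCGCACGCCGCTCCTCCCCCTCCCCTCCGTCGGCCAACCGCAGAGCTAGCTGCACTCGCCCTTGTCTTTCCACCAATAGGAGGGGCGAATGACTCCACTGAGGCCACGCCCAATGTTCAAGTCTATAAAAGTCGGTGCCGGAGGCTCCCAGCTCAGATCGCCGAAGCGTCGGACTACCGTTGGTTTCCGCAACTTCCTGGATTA
CHEK1: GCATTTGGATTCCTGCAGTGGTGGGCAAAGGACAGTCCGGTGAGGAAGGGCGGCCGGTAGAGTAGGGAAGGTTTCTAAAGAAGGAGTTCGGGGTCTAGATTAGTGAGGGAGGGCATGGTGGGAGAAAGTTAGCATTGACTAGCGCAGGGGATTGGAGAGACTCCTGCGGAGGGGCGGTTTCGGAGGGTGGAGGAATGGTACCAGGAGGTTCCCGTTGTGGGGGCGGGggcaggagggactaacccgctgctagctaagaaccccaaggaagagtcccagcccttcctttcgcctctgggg
CHEK2: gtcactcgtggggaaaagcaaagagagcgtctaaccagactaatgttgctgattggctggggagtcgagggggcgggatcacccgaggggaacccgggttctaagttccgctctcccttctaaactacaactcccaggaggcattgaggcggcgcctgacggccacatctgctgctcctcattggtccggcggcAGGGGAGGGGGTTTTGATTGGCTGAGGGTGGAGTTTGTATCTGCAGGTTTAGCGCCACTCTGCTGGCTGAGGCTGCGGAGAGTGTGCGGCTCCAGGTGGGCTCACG

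The next windows are shown for contrast. ATM at chr11:108222817-108223116 on the plus strand met peaks in each control but none after vitamin C, and capitals mark bases in peaks of both controls. One downstream MDM2 start, at chr12:68808767-68809066 on the plus strand, met a peak in control 1 alone, which the capitals mark. CDKN1A at chr6:36678464-36678763 on the plus strand, the gene of the cyclin-dependent kinase inhibitor p21 and the best known p53 target, met no peak in any library and has no capitals.
ATM: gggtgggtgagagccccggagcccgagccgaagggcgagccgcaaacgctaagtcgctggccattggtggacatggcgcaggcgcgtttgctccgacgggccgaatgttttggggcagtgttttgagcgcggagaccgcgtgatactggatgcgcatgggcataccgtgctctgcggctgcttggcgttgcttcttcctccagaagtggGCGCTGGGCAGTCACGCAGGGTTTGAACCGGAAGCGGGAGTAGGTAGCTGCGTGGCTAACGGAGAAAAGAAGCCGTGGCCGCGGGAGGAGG
MDM2: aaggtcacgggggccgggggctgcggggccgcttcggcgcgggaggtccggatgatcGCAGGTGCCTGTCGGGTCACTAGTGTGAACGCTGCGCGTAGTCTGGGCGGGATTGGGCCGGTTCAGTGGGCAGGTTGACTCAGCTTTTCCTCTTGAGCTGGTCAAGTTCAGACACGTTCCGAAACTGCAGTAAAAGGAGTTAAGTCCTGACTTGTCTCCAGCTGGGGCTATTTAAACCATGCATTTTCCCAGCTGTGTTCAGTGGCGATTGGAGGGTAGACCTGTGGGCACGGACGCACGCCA
CDKN1A: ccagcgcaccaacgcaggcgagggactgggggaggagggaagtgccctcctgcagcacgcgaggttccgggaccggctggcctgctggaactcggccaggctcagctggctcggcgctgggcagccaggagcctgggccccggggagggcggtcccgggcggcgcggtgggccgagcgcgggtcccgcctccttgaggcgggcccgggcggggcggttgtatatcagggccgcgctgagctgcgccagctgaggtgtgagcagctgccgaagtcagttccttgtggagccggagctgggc

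In the GADD45B window 224 of 300 bases lay in peaks of all 4 libraries, against 227 of 300 for CHEK1 and 106 of 300 for CHEK2. The capitals of GADD45B run through the letters TATAAA and on past the start, those of CHEK1 end shortly before the start, and those of CHEK2 begin shortly before it. In ATM the 91 bases shared by both controls lie around and after the start. None of the 6 windows held an exact match to the p53 half-site, read as RRRCWWGYYY (R is A or G, W is A or T, Y is C or T). No mismatch was allowed, so a window without a match can still hold an imperfect p53 site. The RefSeq starts used for CHEK1, CDKN1A and MDM2 lie inside the annotated spans of these genes, not at their 5′ ends.

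The lists held 30351 and 24111 peaks in control 1 and control 2 and 9816 and 9896 in vitamin C 1 and vitamin C 2 on the chromosomes used. The peak lists give no read numbers per library. In bulk cells, fewer cells with an opened region and less opening per cell cannot be told apart. The cell line field of the labels differs in its number between samples, and the titles, which all name HEK293T, were followed. Of 6 genes known from this line, only VIM had peaks, in all 4 libraries, while KRT8, KRT18, NEFM, NEFL and PAX2 had none. Among markers of other cell types, the hepatocyte gene ALB had 1 peak in vitamin C 1 and none elsewhere, and PTPRC, CD3E, APOA1, INS, HBB, GFAP, MYH7 and KRT14 had none in any library. Separate cultures are not stated for the replicates, so p-values concern these 4 libraries alone, and the spread among them may be technical.

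Fewer of the genes carried called peaks after vitamin C, and less of their length lay in peaks. In the controls 25 and 25 of the 34 genes had a peak, and with vitamin C 16 and 15 did, a mean of 25.00 ± 0 (SD, n = 2) against 15.50 ± 0.707 (SD, n = 2). The groups did not overlap. By an exact two-sided permutation test p was 0.333, and no smaller value can be reached with 2 libraries a group. Over all protein-coding genes the share with a peak was 43.2% and 39.0% in the controls and 23.0% in each vitamin C library. The listed genes stood above that in every library, at 73.5%, 73.5%, 47.1% and 44.1%.

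Peaks covered 34087 bp of the widened genes in control 1, 30503 bp in control 2, 11237 bp in vitamin C 1 and 10596 bp in vitamin C 2. Both vitamin C values lay far below both controls. The control mean was 32295 ± 2534 bp and the vitamin C mean 10916 ± 453 bp (SD, n = 2 each), a log2 ratio of -1.56, with an exact two-sided permutation p of 0.333. Covered length with vitamin C was 33.8% of the control, and over all other protein-coding genes it was 32.8%, so the list lay close to the general background. The lists placed 80 and 62 peaks of the controls in these genes, and 24 and 27 of the vitamin C libraries. The median peak there was 355, 388, 363 and 343 bp wide in control 1, control 2, vitamin C 1 and vitamin C 2, so the groups overlapped in width. With every list shortened to equal length, the peaks in these genes numbered 29, 26, 24 and 24, a log2 ratio of -0.20 in place of -1.48.

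**Figure D1:**
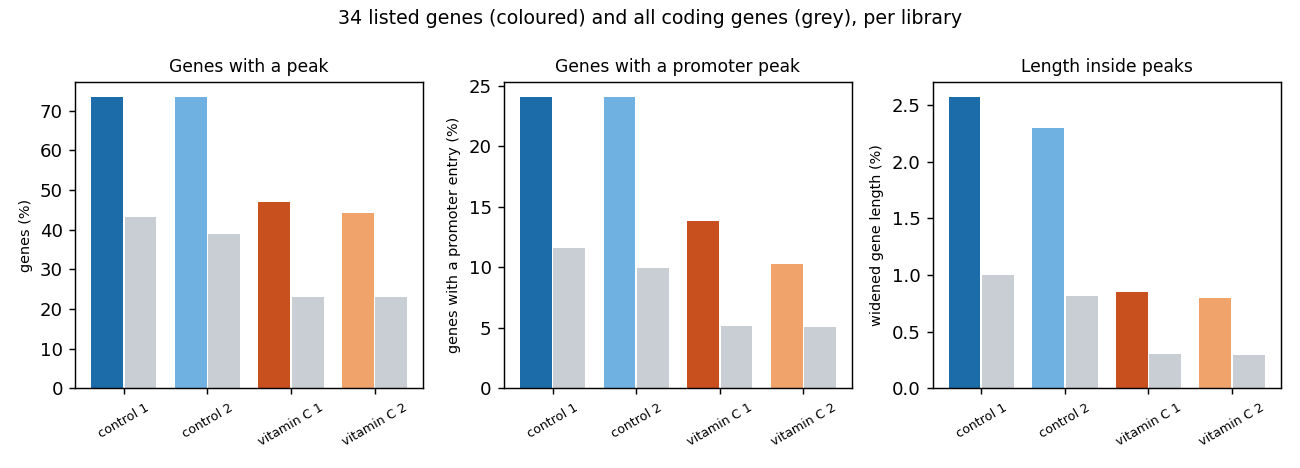
Bars give, per library, the percent of genes with a peak, the percent of genes with a promoter peak among those with a promoter entry, and the percent of widened gene length inside peaks, for the 34 genes (coloured) and all coding genes (grey). In each panel both vitamin C bars are lower than both control bars, and every coloured bar is higher than its grey neighbour, as with 73.5% against 43.2% for genes with a peak in control 1.

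Peaks were present in both controls for 25 of the 34 genes, against 35.3% of all protein-coding genes. A gene was called kept if all 4 libraries had a peak in it, and lost if each control had one and the vitamin C libraries had none. The 12 kept genes were GADD45B, CCNG1, BAX, PMAIP1, PHLDA3, FDXR, TIGAR, DDB2, POLH, CHEK1, CHEK2 and TP53BP1, and of all protein-coding genes 17.5% were kept. Among genes that both controls marked with a peak, 49.7% were kept across the genome, which is near the 12 of 25 seen here. MDM2, MDM4, BBC3, AEN, SESN1, XPC and ATR had a peak in both controls and in 1 vitamin C library. The 6 lost genes were PPM1D, GADD45A, TP53INP1, TP53I3, SESN2 and ATM, and across the genome 26.8% of genes that both controls marked were lost, again near the share of the list.

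None of the 34 genes was gained, that is, free of peaks in each control and marked in each vitamin C list. All 12 genes with a peak in both vitamin C libraries had one in both controls, as did 98.2% of such genes across the genome. For 24 genes the covered length of both controls lay above that of both vitamin C libraries, against 31.8% of all protein-coding genes. All 24 were among the 25 genes with a peak in both controls, and across the genome 90.3% of such genes showed this order, so the list lay near the background. The reverse order was found for none of the list and for 0.0801% of all protein-coding genes. No peak in any library was found for 9 genes of the list, and for 52.5% of all protein-coding genes.

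**Figure D2:**
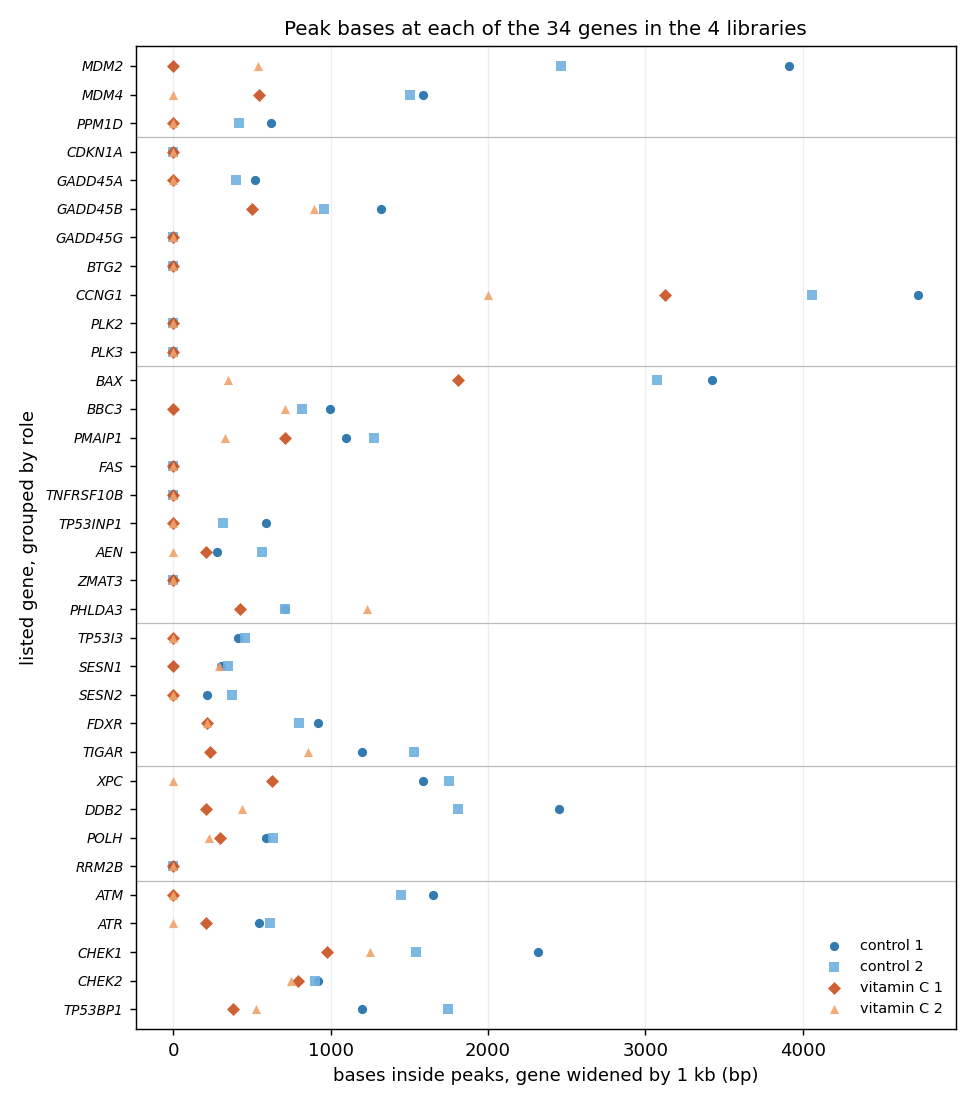
Covered length in bp (horizontal axis) of each of the 34 genes, in rows grouped by role, with 1 point per library, controls in blue and vitamin C libraries in orange. PHLDA3 is the gene whose vitamin C libraries, 423 and 1230 bp, span its controls, 708 and 709 bp, and points at 0 bp lie on top of each other.

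The count of lost genes depends on the length of the lists and on single libraries. Every list was then shortened to the 9816 peaks of highest −log10 q. With these, 18 and 18 genes had a peak in the controls against 16 and 15 with vitamin C. Covered length differed by a log2 ratio of -0.75. The same 12 genes were kept, and 2 genes, ATM and PPM1D, were lost. MDM4, with a peak in 1 vitamin C library, was the only other listed gene that both controls then marked. Across the genome both controls marked 3883 genes with such lists, of which 76.0% were kept and 7.42% lost. With such lists the controls lay above both vitamin C libraries in covered length for 9 genes, against 12.5% of all protein-coding genes. That order needs a peak in both controls. Of the 3883 genes so marked across the genome, 2499 showed it. With lists of full length but without vitamin C replicate 1, the 6 lost genes became 10. That rise follows from the definition, as absence is then asked of a single vitamin C library. The added genes were MDM4, AEN, XPC and ATR, each with a peak in vitamin C 1 and none in vitamin C 2.

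The 3 regulators of p53 had peaks in both controls, and none was kept. MDM2, the ubiquitin ligase that marks p53 for degradation, lies at chr12:68808172-68850686 and had 12 and 7 peaks in the controls, 0 in vitamin C 1 and 2 in vitamin C 2. Its covered length was 3909, 2462, 0 and 538 bp in control 1, control 2, vitamin C 1 and vitamin C 2, so that the groups did not overlap. The control mean was 3185.5 ± 1023.0 bp and the vitamin C mean 269.0 ± 380.0 bp (SD, n = 2 each), or 8.44% of the control. Apart from the control 1 peak at the downstream start printed above, the peaks lay along the gene body and past its end. The controls shared 2 regions, chr12:68814892-68815612 and chr12:68846537-68846911, and neither was met with vitamin C. The second of them also lies in the window of the neighbouring gene CPM. The 2 peaks of vitamin C 2, at chr12:68831067-68831288 and chr12:68840371-68840686, overlapped peaks of control 1.

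MDM4, a relative of MDM2 that binds and inhibits p53, had 1584, 1505, 544 and 0 bp covered in the order control 1, control 2, vitamin C 1 and vitamin C 2. The region over its start, chr1:204515837-204516910, was met by vitamin C 1 and not by vitamin C 2, and a region in the body, chr1:204556119-204556604, was met by neither. PPM1D, the phosphatase WIP1 that removes activating phosphates from p53 and its kinases, had 623 and 416 bp in the controls and 0 bp in both vitamin C libraries. The PPM1D region shared by the controls, chr17:60666865-60668306, began beyond the end of the gene, where summits lay 1833 and 1001 bases past it.

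Of the 8 cell cycle genes, 2 were kept, 1 was lost and 5 had no peak. GADD45B, a stress-induced adaptor of kinase signalling, had 1319, 956, 497 and 892 bp covered in control 1, control 2, vitamin C 1 and vitamin C 2. Both vitamin C values lay below both controls, with a mean of 694.5 ± 279.0 bp against 1137.5 ± 257.0 bp (SD, n = 2 each), a gap that is of the size of the spread within the groups. The start peak printed above was the steadiest part of the gene: it was 513, 501, 497 and 493 bp wide, with summits 112, 120, 129 and 117 bases after the start. The authors' fold enrichment, which is each peak's own value, was 18.20, 17.30, 12.80 and 15.50 there. A region further inside, chr19:2476693-2477034, was met by neither vitamin C library.

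CCNG1, which encodes cyclin G1, a partner of protein phosphatase 2A in feedback on p53, had the longest covered length of the list, 4733, 4059, 3122 and 2002 bp. The groups did not overlap, and the vitamin C mean was 58.3% of the control mean. Most of the covered length lay in 2 body regions, chr5:163447151-163449661 and chr5:163449978-163451814, and both lie inside the overlapping gene NUDCD2 as well, so the signal cannot be assigned to either gene. The region near the CCNG1 start, chr5:163437921-163438309, was met by neither vitamin C library. GADD45A, another member of the GADD45 family, had 520 and 398 bp in the controls and 0 bp in both vitamin C libraries, in a region outside the gene at chr1:67688377-67689014. The GADD45A peak of control 2 was weak, with fold enrichment of 3.11, at percentile 1.17 of that list. That of control 1 had 4.50.

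CDKN1A, GADD45G, the antiproliferative gene BTG2 and the polo-like kinase genes PLK2 and PLK3 had no peak in any library. These 5 belong to the 9 genes without a peak, with FAS, TNFRSF10B, ZMAT3 and RRM2B. The widened spans of the 9 had a median of 12.9 kb, against 29.6 kb for the 25 with peaks, and the part of this length in the result was not tested. The p21 gene CDKN1A spans chr6:36676463-36687332. In such lists an absence of peaks is an absence of called regions, not of transcription.

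**Figure D3:**
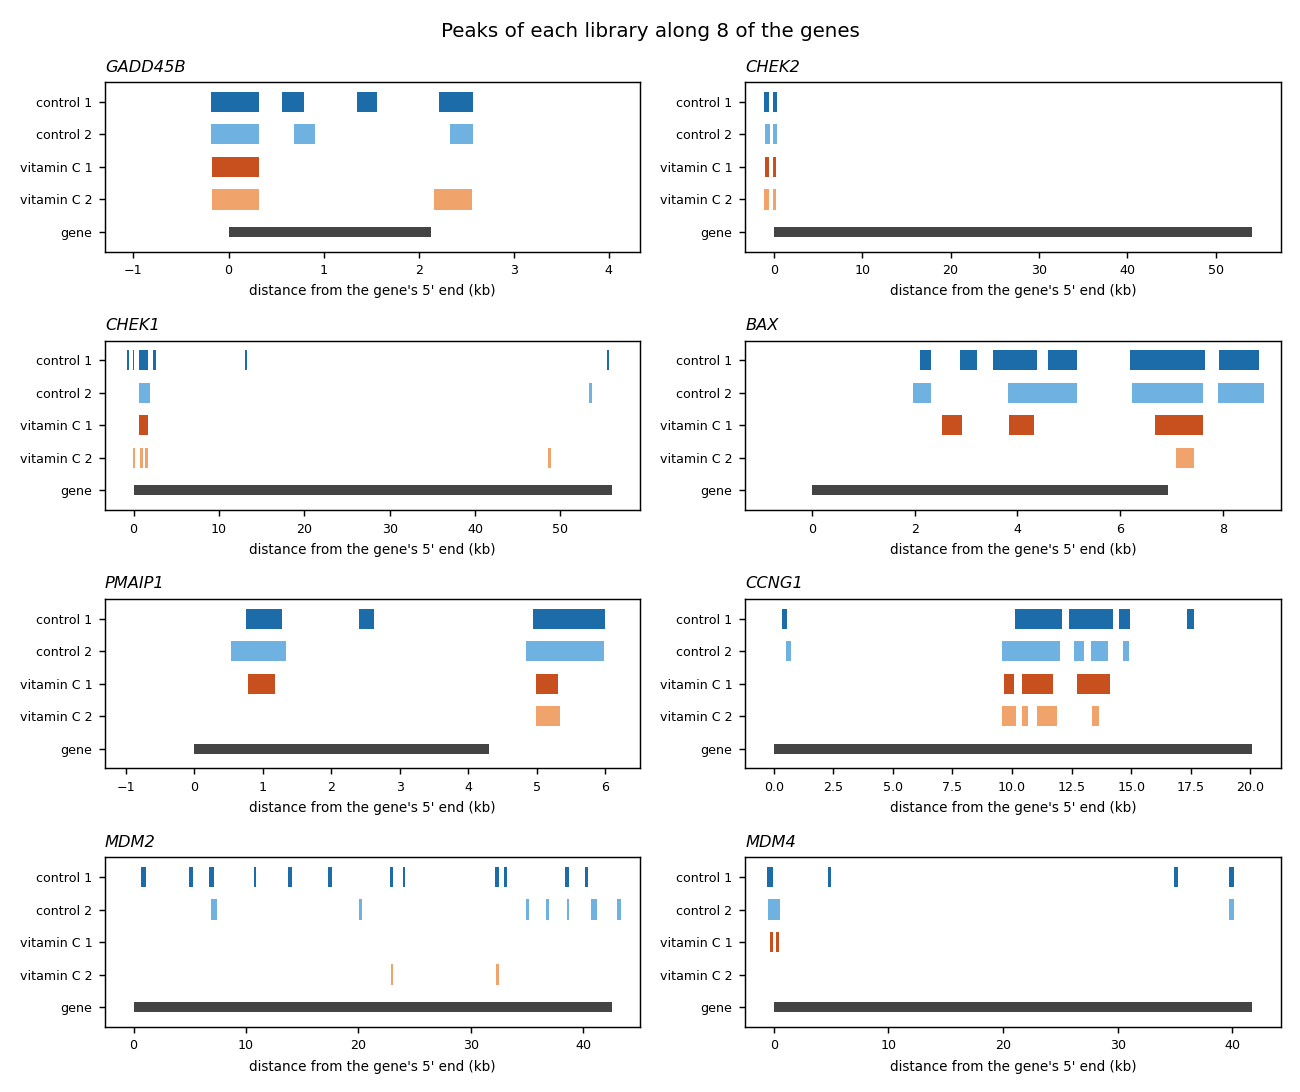
Peaks of each library (coloured blocks, 1 row per library) along 8 of the genes, against distance in kb from the 5′ end of the annotated gene, whose span is the dark bar. Peaks near the starts of GADD45B, CHEK1 and CHEK2 recur in all 4 libraries, while MDM2 has 12 and 7 scattered peaks in the controls, 0 in vitamin C 1 and 2 in vitamin C 2.

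Of the 9 apoptosis genes, 3 were kept, 2 had a peak in 1 vitamin C library, 1 was lost and 3 had no peak. BAX, which permeabilises the mitochondrial outer membrane, had 3424 and 3073 bp in the controls, 1810 bp in vitamin C 1 and 349 bp in vitamin C 2. The vitamin C libraries differed from each other by more than the controls did, and both lay below them, at 33.2% of the control mean. The BAX signal lay in the body and around the end of the gene. The body region chr19:48958394-48960038 was met by 1 vitamin C library, and the region over the end of the gene, chr19:48961063-48962520, was met by both. A further region, chr19:48962787-48963682, reached only a few bases into the widened gene, and the vitamin C peaks that met it lay outside, so they add nothing to the BAX values.

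PMAIP1, which encodes the BH3-only protein NOXA, had 1100, 1273, 711 and 328 bp covered. The region past its end, chr18:59904833-59905993, had a summit at 843, 845, 837 and 844 bases past the gene in the 4 libraries, so its summit stayed within a few bases while its peaks were narrower with vitamin C. The region near the PMAIP1 start, chr18:59900539-59901338, was met by 1 vitamin C library. PHLDA3, a repressor of AKT signalling, had 708, 709, 423 and 1230 bp covered, and is the exception to the order of the groups: its control mean was 708.5 ± 0.707 bp and its vitamin C mean 826.5 ± 571.0 bp (SD, n = 2 each), with overlapping groups. The PHLDA3 region shared by the controls, chr1:201462571-201464011, lay outside the gene, next to its end of lower coordinate.

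BBC3, the gene of the BH3-only protein PUMA, had 998 and 819 bp in the controls, 0 bp in vitamin C 1 and 711 bp in vitamin C 2. The vitamin C libraries thus disagreed, although both lay below both controls. The BBC3 peaks of vitamin C 2 were among the weakest called, with fold enrichment of 2.37 and 2.18, within the lowest 0.293% of that list. Those of control 2 were also weak, at 2.37 and 3.33, and that of control 1 had 6.05. AEN, a nuclease that degrades DNA in apoptosis, had 278, 563, 205 and 0 bp. TP53INP1, a stress protein that enhances p53 activity, had 586 and 314 bp in the controls and 0 bp in both vitamin C libraries. Its 2 peaks of control 1 and the peak of control 2 also met the window of NDUFAF6. The TP53INP1 peak of control 2 was weak, with fold enrichment of 3.11, at percentile 1.17 of that list. Those of control 1 had 8.08 and 4.95. FAS and TNFRSF10B, which encode death receptors, and the RNA-binding gene ZMAT3 had no peak.

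All 5 redox and metabolism genes had peaks in both controls: 2 were kept, 1 had a peak in 1 vitamin C library and 2 were lost. FDXR, ferredoxin reductase of mitochondrial electron transfer, had 922, 801, 211 and 216 bp covered, so the controls stood well apart from the vitamin C libraries. The region just inside the FDXR start, chr17:74872374-74872816, was met by both vitamin C libraries, with summits at 377, 381, 384 and 381 bases from the start. The neighbouring region before the start, chr17:74873125-74873751, was met by neither.

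TIGAR, a regulator of glycolysis, had 1202, 1529, 231 and 853 bp covered. The TIGAR region before the start, chr12:4320317-4320558, was met in both vitamin C libraries, and met no other coding gene's window, and the body region chr12:4355545-4356539 was met in 1. SESN1 and SESN2, the sestrins that restrain mTORC1 signalling, had little signal: SESN1 had 302, 345, 0 and 289 bp. The SESN1 region also meets the window of CEP57L1, the nearest other coding gene by its start. SESN2 had 215, 374, 0 and 0 bp, in peaks past the end of the gene that did not overlap between the controls. TP53I3, an oxidoreductase gene, had 412, 454, 0 and 0 bp, and its region, chr2:24076657-24077110, lay past its own end with its middle 50 bases from the start of FAM228B.

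Among the 4 genes of repair and nucleotide supply, 2 were kept, 1 had a peak in 1 vitamin C library and RRM2B, a ribonucleotide reductase subunit, had none. DDB2, a damage sensor of nucleotide excision repair, had 2448, 1809, 207 and 437 bp covered, so that the vitamin C mean was 15.1% of the control mean. Both DDB2 regions shared by the controls lay in the gene body towards its end, and each was met by 1 vitamin C library. XPC, which recognises distorted DNA in the same pathway, had 1588, 1753, 626 and 0 bp. The XPC region before its start, chr3:14178826-14179199, also meets the window of the neighbour LSM3 and was met by 1 vitamin C library.

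POLH, the translesion polymerase eta, had 589, 633, 295 and 224 bp covered, with both groups tight and apart. The kept POLH region, chr6:43575076-43575648, had its middle at -823 from the POLH start and 676 bases inside the neighbouring gene XPO5. A body region near the end of POLH, chr6:43618775-43618999, was met by neither vitamin C library.

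All 5 damage sensing and checkpoint genes had peaks in both controls: 3 were kept, 1 had a peak in 1 vitamin C library and 1 was lost. ATM, the kinase activated by double-strand breaks, had 1648, 1448, 0 and 0 bp covered, and had the longest control length among the lost genes, 1548.0 ± 141.0 bp (SD, n = 2). It was also lost with lists of equal length. Both ATM regions near the start, chr11:108222194-108222560 and chr11:108222926-108223818, also lie in the window of NPAT, and the first had its middle at -690 from the ATM start and 261 bases inside NPAT. Each of the other ATM peaks met the window of NPAT or of C11orf65. ATR, the kinase activated by single-stranded DNA at stalled forks, had 546, 617, 207 and 0 bp. The ATR region that the controls shared, chr3:142448322-142448624, lay past the end of the gene, also meets the window of XRN1 and was met by 1 vitamin C library. Control 1 had a further peak near the ATR start and control 2 had one in the gene body.

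CHEK1, the kinase downstream of ATR, had 2318, 1543, 977 and 1251 bp covered, with both vitamin C values below both controls. The CHEK1 start region, chr11:125625778-125627059, was met in all 4 libraries with peaks of 1045, 1275 and 977 bp in control 1, control 2 and vitamin C 1, and vitamin C 2 had 2 separate peaks there of 348 and 343 bp. CHEK2, the kinase downstream of ATM, kept the highest share of its control length among the genes whose groups did not overlap, 84.7%, with 917, 903, 793 and 749 bp covered. Of its regions, chr22:28741471-28741952 and chr22:28742308-28742984, the second had its middle at -35 from the start of HSCB, and both lie in the window of that gene. TP53BP1, which binds chromatin at breaks, had 1198, 1747, 378 and 527 bp covered. The controls of TP53BP1 shared no region, yet both vitamin C libraries met a peak of control 1 at chr15:43492723-43493224, inside the gene body.

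Signal near a neighbour was frequent. Of the peaks in the widened genes, 25 of 80 and 26 of 62 in the controls and 9 of 24 and 9 of 27 with vitamin C also met the widened span of another coding gene. With only the peaks that met no other coding gene, 9 genes were kept, 7 were lost and 14 had no peak. CCNG1, POLH, ATR and XPC were newly lost. CHEK2, ATM, SESN1, TP53I3 and TP53INP1 newly had no peak. The same shares over all protein-coding genes were not computed for this choice of peaks. With the genes not widened, 7 were kept: CCNG1, CHEK1, CHEK2, DDB2, FDXR, GADD45B and TP53BP1. Of the other listed genes that both controls then marked, 8 had a peak in 1 vitamin C library and 5 were lost. Across the genome both controls marked 6045 genes without widening, of which 45.9% were kept and 29.4% lost.

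Whether a gene kept its peaks went with how much of it was covered in the controls, in the list as in the genome. Of genes marked in both controls and with a mean of under 500 bp, 59.8% were lost and 14.2% were kept across the genome, and of the 6 listed genes in that range 4 were lost and none was kept. From 500 to 1000 bp, 36.1% were lost across the genome, and 1 of the 7 listed genes was, PPM1D. From 1000 to 2000 bp, 13.2% were lost, and 1 of the 8 listed genes was, ATM. At 2000 bp and above, 1.66% were lost and 90.6% kept, and of BAX, CCNG1, DDB2 and MDM2 none was lost and 3 were kept. MDM2, with 0 bp in vitamin C 1, was the fourth.

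**Figure D4:**
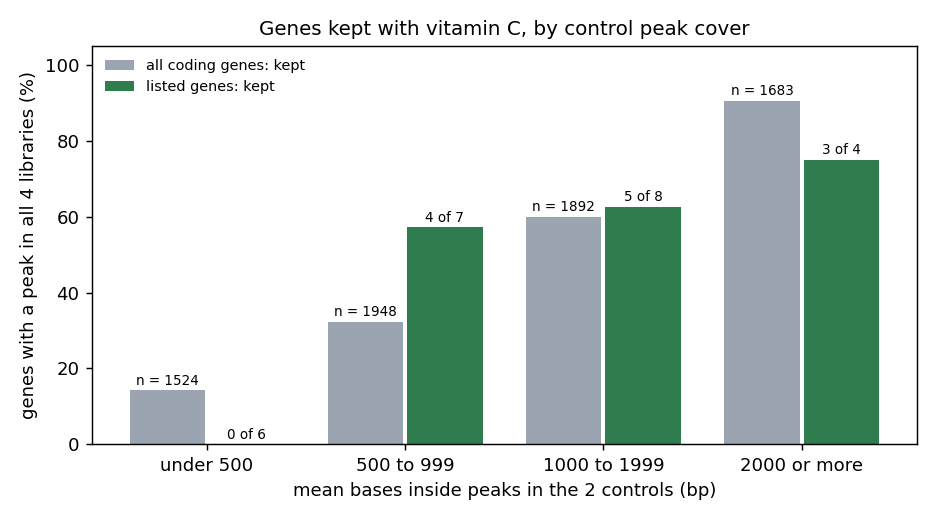
Percent of genes with a peak in all 4 libraries (vertical axis) by mean covered length in the controls in bp, for all protein-coding genes with a peak in both controls (grey, number of genes above the bar) and for the 25 listed genes (green). The genome-wide share kept goes from 14.2% under 500 bp to 90.6% at 2000 bp and above, and the listed genes go from 0 of 6 to 3 of 4.

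Regions in place of genes gave a similar picture. The controls shared 40 regions in the widened genes, and vitamin C 1 and vitamin C 2 both met 13 of them, while 11 were met in 1 of these libraries and 16 in neither. Across all gene windows 32.8% were met in both and 41.9% in neither, close to the 32.5% and 40.0% here. By position, 7 of 16 regions near a start, 2 of 13 in a gene body and 3 of 8 at or past a gene end were met in vitamin C 1 as well as vitamin C 2. So was 1 of 3 regions of genes without a promoter entry. Those met at or past a gene end include the BAX region chr19:48962787-48963682, which vitamin C peaks met only outside the widened gene. The counts are small and the difference between positions was not tested. Of the 14 regions shared by the vitamin C libraries, 13 were met in both controls, against 94.0% across all gene windows.

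Fewer of the genes had a peak in a promoter window than in the widened gene. Of the 29 genes with an entry, 7 and 7 had a promoter peak in control 1 and control 2, against 4 and 3 with vitamin C, a difference of -3.50 in the mean with an exact two-sided permutation p of 0.333. With lists of equal length the counts were 3, 4, 4 and 3 and the difference was 0. Where the summit itself had to lie in the window, the counts were 4, 1, 2 and 1, the groups overlapped and the difference was -1. ATM, CHEK1, CHEK2, FDXR, GADD45B and MDM4 had a promoter peak in both controls, which is 6 of 29 against 8.14% of all genes with an entry. For FDXR the controls marked different windows, and no FDXR window held a peak of both. CHEK1, CHEK2 and GADD45B had one in all 4 libraries, 3 of 29 against 3.64%. Of all control peaks in the list, those of the promoter windows included, 46 of 80 and 32 of 62 had their summit in a gene body, and 19 and 16 had it near a start.

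Motifs were searched on both strands of the 43 promoter windows of these 29 genes and of 22132 windows of all coding genes. The p53 half-site, the short element that p53 binds, was searched without mismatches and only inside the windows. Imperfect sites and sites further away were therefore not counted. Matches were in windows of AEN, DDB2, FAS, FDXR, PLK2 and SESN1, which is 6 of 43 windows, and in 6.23% of all windows. Of these genes FDXR alone had a peak in the window with the match, in control 2. The letters GGGCGG were in 33 of 43 windows against 56.3% of all, CCAAT in 27 against 34.6% and TATAAA in 1, that of GADD45B, against 9.46%. Some windows of a gene overlap, so they are not independent. The median share of G, the base that N3-kethoxal reacts with, was 35.0% in the listed windows and 31.0% in all, and was counted on the strand of the gene.

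Further genes of the pathway were taken from 3 lists. Of 24 other p53 targets, 10 and 11 had a peak in the controls, as did 4 in each vitamin C library. Both controls marked 10 of them, of which 3 were kept and 5 lost, beside 49.7% and 26.8% of such genes across the genome, and 13 had no peak. GLS2, a mitochondrial glutaminase, was kept with 3197, 1937, 775 and 713 bp, and TRIAP1, an inhibitor of apoptosis, with 1828, 1504, 733 and 210 bp. FBXO22, a ubiquitin ligase subunit, was lost with 2830, 1774, 0 and 0 bp, and so was the helicase gene ASCC3 with 996, 1090, 0 and 0 bp. Covered length of this list with vitamin C was 15.2% of the control.

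Of 24 other DNA damage response genes, 22 and 17 had a peak in control 1 and control 2, against 12 and 11 with vitamin C. Both controls marked 17 of them, of which 10 were kept and 5 lost, near those genome-wide shares. XRCC5 and XRCC6, which encode the Ku proteins of end joining, were kept and had long covered stretches: XRCC5 had 16764, 14788, 5226 and 4301 bp, and XRCC6 had 13951, 13140, 3699 and 2261 bp. FANCD2, of crosslink repair, was lost with 1942, 2357, 0 and 0 bp, and RAD50, of the break-binding MRN complex, with 1775, 1190, 0 and 0 bp. Of 10 modifiers of p53, both controls marked 9, of which 4 were kept and 3 lost, also near them. The ubiquitin-conjugating enzyme gene UBE2D3 was kept with 6328, 6000, 3642 and 3022 bp, and the kinase gene HIPK2 with 1367, 1254, 840 and 891 bp. The acetyltransferase gene EP300 was lost with 2079, 3101, 0 and 0 bp, and the MDM2 deubiquitinase gene USP7 with 1698, 372, 0 and 0 bp. As a share of the control, covered length with vitamin C was 25.0% in the damage response list and 31.5% in the modifiers, beside 33.8% in the 34 genes.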

How the data were processed

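KAS-seq peak lists of 2 control and 2 vitamin C labelled HEK293T libraries were used. The authors' peaks are on hg38, and the tools named, per the submitters' processing notes, are MACS2 2.2.7.1, Bowtie2 2.4.5, deepTools, cutadapt, Trim Galore and bcl2fastq 2.19. Their settings and order are not given in these sources. Each list deposited by the authors gives peak positions, a score, a linear fold (ratio over background), and −log10 p and −log10 q, per library and not pooled. Gene spans came from a RefSeq table of GRCh38.p14, and strand and starts came from a RefSeq promoter table, so exons, introns and UTRs were not used here. Peak presence (at least 1 bp in the gene widened by 1 kb), covered bp and peak numbers were computed with pandas 2.3.3, numpy 2.4.6 and scipy 1.17.1 under Python 3.11.15 (figures: matplotlib 3.10.9), and the overlap code was tested on simulated data. Peaks near a start had their summit within 1 kb of it. Each group difference was tested over libraries with an exact permutation test, two-sided. A peak that met several genes counted for each. The members and lists were chosen with earlier results of these data known. Named genes are all 34 members, and of each further list up to 2 kept and 2 lost genes of the highest mean control bp. Alternatives were thresholds of 5 on −log10 q and −log10 p, lists of equal length, other windows and overlaps, leaving out each library and a replicate block. The comparison by regions was added after seeing the data. Not every cell type marker examined is reported here.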

Additional observations from a re-analysis of the deposited data

How the results depend on the processing

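Of 57 alternative values of the tested quantities, 56 were lower with vitamin C. With a library left out or a replicate block this direction was fixed beforehand, as both controls lay above both vitamin C libraries in every tested quantity. Covered percent is covered length over a constant within a setting, so it repeats that result. Of 33 alternative counts of genes, 30 were within 1.5 times the reported one. These include the counts of genes gained, which were 0 in every setting, where a ratio has no meaning. The exception among the tested quantities was the difference in genes with a promoter peak with lists of equal length, which was 0. It was -1 where the summit had to lie in the window. Lists of equal length also gave 2 lost genes and a log2 ratio of -0.20 for peaks in the genes, and genes with no widening gave 7 kept genes. Fewer control peaks enter lists of equal length by construction, and the cause of the other changes was not tested. Leaving out 1 library at a time gave 6 to 10 lost genes, with 10 without vitamin C replicate 1 and 9 without vitamin C replicate 2. Without a vitamin C library the lost genes can by definition only stay or rise in number, as absence is asked of the remaining one. The log2 ratio of covered length ran from -1.64 to -1.48 when 1 library was left out. With the replicate number as a replicate block, the covered length changed by a log2 ratio of -1.56, genes with a peak by -9.50 and peaks by -1.47, and no direction could change. The labels do not say that the numbers pair the libraries, and the within-number deviations had a correlation of 0.05 over 9486 genes. With 2 libraries against 2 no p below 0.333 could be reached, and the peak lists give no read numbers per library, so a difference in peak calling and a difference in opened DNA cannot be told apart.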
